A study of Mus musculus with 11 samples.

Results

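*Zfp608*, *Neurl3*, *Slf1*, *Kazn*, *Kank2* and *Zbtb21* are 6 protein-coding genes out of the 29307 genes listed in the count table of liver sinusoidal endothelial cells (ECs). They were chosen from these same libraries as genes with few studies behind them that lay lower in germ-free (GF) than in conventionally raised (CONV-R) mice. Their difference between the groups is therefore described without a test, and the tests below concern what that choice did not use. All 11 mice were male C57BL/6J animals of 10 to 12 weeks with no engineered allele, fed the same autoclaved diet. The 5 GF mice were kept free of microbes in isolators, and the 6 CONV-R mice came from the same colonies and carried a specific-pathogen-free microbiota. ECs were enriched from each liver with CD146 beads, sorted as CD31+, CD105+ and CD146+ cells, and made into 1 library per mouse after amplification of cDNA from 20 ng of RNA. The paper reports that GF livers gave fewer sorted ECs and less RNA than CONV-R livers, and that few sorted cells were viable. The part of this in the values below was not tested.

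The 6 proteins belong to different cellular machineries. Zfp608 is a nuclear zinc finger protein and the paralog of Zfp609, which works with the cohesin loader Nipbl and the Integrator complex. Neurl3 is a RING-type ubiquitin ligase with a Neuralized domain, and Neuralized proteins and the Mind bomb ligases are known for driving the endocytosis of Notch ligands. Slf1 joins Rad18 to Slf2 and the SMC5-SMC6 complex, which holds damaged DNA together during repair. Kazrin, the product of *Kazn*, is a cytoplasmic protein with a liprin-like part that binds the plakins of cell junctions. Kank2 binds talin at focal adhesions, ties the cell cortex around them to microtubules, and can hold steroid receptor coactivators in the cytoplasm. Zbtb21 is a BTB zinc finger protein of the nucleus that represses transcription.

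The libraries held 7242717 to 16164588 counts, and levels below are CPM, the counts scaled by TMM library size. Of the 12905 genes with enough counts for a test, 965 (7.48%) passed an adjusted p of 0.05 between GF and CONV-R mice (edgeR, quasi-likelihood, adjusted by Benjamini and Hochberg over all of them), and 345 of them (2.67%) were lower in GF mice. Each of the 6 genes is among these 345 by the way it was chosen. With single mice left out, 622 to 1260 genes were called and 206 to 481 were lower, and DESeq2 called 1527 and 598. Endothelial and sinusoidal markers were abundant in both groups, with summed levels of 27173 to 34600 CPM in CONV-R and 27599 to 37855 CPM in GF mice for 10 sinusoidal genes such as *Stab2* and *Mrc1* (two-sided exact permutation test over all splits of the mice, p = 0.429). The 10 Kupffer cell markers summed to 86.0 to 222 CPM in CONV-R and 197 to 931 CPM in GF mice (same exact permutation test, p = 0.017), 7 of 10 were called higher, and each of the 10 had counts. GF 6 held the 931 CPM, and without it the log2 ratio of the sums was 0.98 instead of 1.57 (exact permutation test, p = 0.038). *Adgre1*, *Csf1r* and *C1qb* were called whichever mouse was left out, while *Clec4f*, *Timd4*, *Vsig4* and *C1qc* were not called without GF 6 (adjusted p = 0.061 to 0.135), nor the first 3 of these without CONV-R 2, 4 or 5, nor *Timd4* without CONV-R 3 or GF 2. Without GF 6 the Log2FC of the 6 genes ran from -1.18 to -0.78, against -1.21 to -0.81 with it. The part of other cells in these values was not tested, and in bulk libraries fewer cells that use a gene and less RNA per cell cannot be told apart.

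All 6 genes lie on the minus strand of GRCm38, on 6 different chromosomes. The promoters of *Neurl3*, *Kazn*, *Kank2* and *Zbtb21* were taken from RefSeq's table (GRCm38.p6), which gives 2 starts for *Kazn*. The 250 bases upstream of each start were searched on both strands for 14 short motifs, and the stretches shown here hold the κB and ETS matches, each shared by more than 1 of the 4 genes. Numbers count bases upstream of the start, which begins at +1. A letter match is a description of the sequence and not a binding site. Capitals mark a κB motif in the *Neurl3* stretch at chr1:36273516-36273545, minus strand, bases -120 to -91. Like the second *Neurl3* stretch below, it lies in an annotated exon of a longer *Neurl3* transcript:

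Neurl3 κB: gaggtcatggGGAAAGTCCCggatatcgtc

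A κB match was present in 2 of the 4 genes, *Neurl3* and *Zbtb21*, and in 3.90% of all 32851 promoters of the table. The upstream window of *Zbtb21*, chr16:97962623-97962872 on the minus strand, contains no annotated exon and is shown whole because it carries more matches than the windows of the other genes. Its capitals mark, in order, the κB motif, GC boxes (GGGCGG, read here from the other strand), a CCAAT box and an E-box (CACGTG, in 6.02% of all promoters). A TEAD match (GGAATG, in 12.6% of all promoters), read from the other strand at -226 to -221, is left in lower case:

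Zbtb21: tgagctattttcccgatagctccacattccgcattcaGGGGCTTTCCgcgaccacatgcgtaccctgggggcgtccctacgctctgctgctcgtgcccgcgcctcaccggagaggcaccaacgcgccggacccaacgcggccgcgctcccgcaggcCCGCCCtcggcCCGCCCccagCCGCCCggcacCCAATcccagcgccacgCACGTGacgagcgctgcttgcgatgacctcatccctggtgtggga

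This window held 30 CpG dinucleotides at 70% GC, and 94.1% of promoters in the table held fewer. GC boxes also occurred upstream of *Kank2* (32.7% of all promoters), while the CCAAT box was found at *Zbtb21* alone of the 4 genes (33.8% of all promoters). The ETS core CCGGAA was found in 2 of the 4 genes, which is 2 of the 5 windows, and in 12.03% of all promoters. It is in capitals in the next 2 stretches of 30 bases, both on the minus strand, from *Neurl3* (chr1:36273442-36273471) and the start of *Kazn* at higher coordinates (chr4:142239411-142239440). In the *Neurl3* stretch it is read from the other strand, as TTCCGG. The *Neurl3* stretch also has a TATA box (TATAAA) in capitals, the only TATA match among the 4 genes and present in 12.4% of promoters:

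Neurl3: tccagccTATAAAaggggaaccTTCCGGag
Kazn: tacctcgctagcCCGGAAggagcaggagga

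The same search found an AP-1 motif (TGANTCA), a CRE (TGACGTCA), an interferon response motif (ISRE) or a glucocorticoid half-site (AGAACA) in 0 of the 4 genes, against 6.75%, 1.55%, 2.98% and 16.1% of all promoters.

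*Zfp608* (ENSMUSG00000052713, chromosome 18, 54888048 to 54992555) had the largest Log2FC of the 6 in size. Its levels were 58.1, 55.1, 62.8, 54.3 and 51.4 CPM in GF mice 1, 2, 4, 5 and 6, and 108 CPM at the lowest, 129 at the median and 151 at the highest in CONV-R mice. The GF mice lay close together, so that the lowest CONV-R mouse still exceeded the highest GF mouse 1.71-fold. The group means were 56.4 ± 4.35 and 131 ± 15.6 CPM (SD, n = 5 and 6), a Log2FC of -1.21 (standard error 0.11).

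*Neurl3* (ENSMUSG00000047180, chromosome 1, 36264597 to 36274679) was the most abundant of the 6 in each group when levels are taken per exon length (given below). GF mice 1, 2, 4, 5 and 6 had 96.7, 94.2, 87.5, 106 and 114 CPM, and CONV-R mice ran from 178 over a median of 187 to 245 CPM. CONV-R 1 and CONV-R 3 stood above the other 4 CONV-R mice, which lay within 178 to 190 CPM, and no GF mouse reached the lowest of them. The means were 99.8 ± 10.5 CPM in GF and 201 ± 28.1 CPM in CONV-R mice, with a Log2FC of -1.01 (standard error 0.12), and without CONV-R 3 it was -0.95.

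*Slf1* (ENSMUSG00000021597, chromosome 13, 77043088 to 77135473) had 37.5, 51.9, 52.8, 55.8 and 43.0 CPM in GF mice 1, 2, 4, 5 and 6. Its CONV-R levels were 85.4 CPM at the lowest, 99.9 at the median and 117 at the highest. GF 1 and GF 6 were the low GF mice here, and the spread within the GF group, a coefficient of variation of 15.9%, was the widest among the 6 genes. The Log2FC was -1.06 (standard error 0.13), from means of 48.2 ± 7.66 and 101 ± 11.2 CPM.

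*Kazn* (ENSMUSG00000040606, chromosome 4, 142102390 to 142239401) was the least abundant per exon length. Its levels were 24.3, 25.6, 26.7, 29.3 and 30.0 CPM in GF mice 1, 2, 4, 5 and 6, and 47.6, 50.9 and 57.2 CPM at the lowest, median and highest in CONV-R mice. The groups were tight, at 8.94% and 7.01% variation, and did not overlap. The Log2FC was -0.92 (standard error 0.12).

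*Kank2* (ENSMUSG00000032194, chromosome 9, 21766784 to 21798744) had the smallest ratio between its lowest CONV-R and highest GF mouse. Its GF levels were 60.2, 45.6, 55.8, 54.6 and 48.7 CPM, and its CONV-R levels ran from 84.2 over 90.0 to 111 CPM, with CONV-R 3 again the highest. The lowest CONV-R mouse exceeded the highest GF mouse, GF 1, by 1.40-fold, and the Log2FC was -0.81 (standard error 0.12). GF 1 was thus the highest GF mouse for *Kank2* and the lowest for *Slf1* and *Kazn*.

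*Zbtb21* (ENSMUSG00000046962, chromosome 16, 97943357 to 97962622) had 36.4, 35.7, 29.2, 33.7 and 35.9 CPM in GF mice 1, 2, 4, 5 and 6. CONV-R mice had 56.5 to 66.2 CPM around a median of 60.4. GF 4 was the low mouse of its group, while the same mouse was the highest GF mouse for *Zfp608*. The Log2FC was -0.83 (standard error 0.11).

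**Figure D1:**
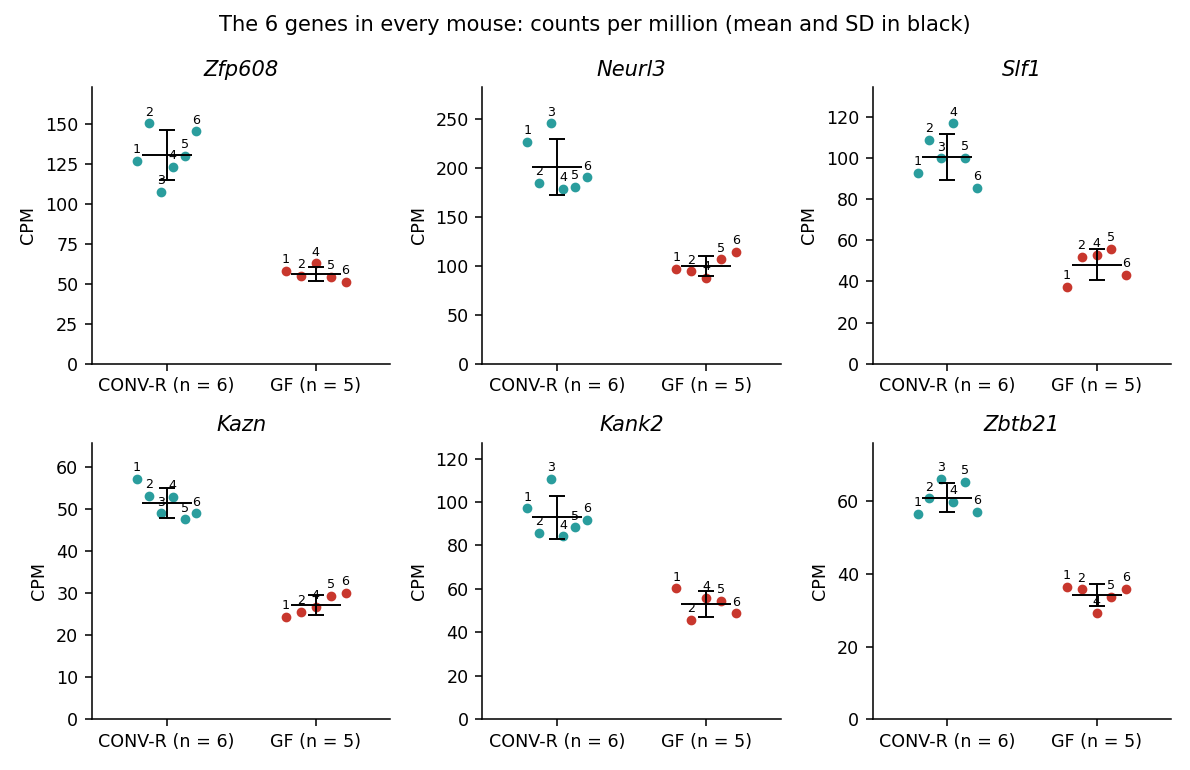
CPM (vertical axes, from 0) of the 6 genes in each of 6 CONV-R and 5 GF mice, with the number of the mouse beside its point and the mean and SD in black. In every panel the lowest CONV-R mouse lies above the highest GF mouse, by 1.40-fold for *Kank2* to 1.71-fold for *Zfp608*. CONV-R 3 is the highest CONV-R mouse for *Neurl3*, *Kank2* and *Zbtb21* and the lowest for *Zfp608*.

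Across all tested genes, 306 (2.37%) had every GF mouse below every CONV-R mouse, and all 6 genes were among them. The 6 were chosen from these same libraries as lower in GF mice, so this is a description. GF means stood at 43.1% (*Zfp608*) to 57.0% (*Kank2*) of CONV-R means, and leaving out any mouse moved no Log2FC of the 6 by more than 0.08. Spread between mice, with coefficients of variation of 6.61% to 15.9%, exceeded what counting alone gives. In the log2 values deposited by the authors the differences were smaller, from -0.98 for *Zfp608* to -0.65 for *Kank2*. DESeq2 on the raw counts gave -1.21 and -0.81 for these genes, so the deposited values are on another scale than the Log2FC.

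Per kilobase of exon (RPKM, from the same counts and the annotated exon length), the 6 genes kept a single order in both groups. *Neurl3* led with 62.4 ± 8.74 RPKM in CONV-R and 31.0 ± 3.27 in GF mice. *Kank2* (17.8 ± 1.88 and 10.1 ± 1.11 RPKM), *Slf1* (17.1 ± 1.90 and 8.20 ± 1.30) and *Zfp608* (15.3 ± 1.83 and 6.62 ± 0.51) followed, and neighbours among these 3 overlapped in their ranges in each group. *Zbtb21* (9.63 ± 0.64 and 5.40 ± 0.47 RPKM) and *Kazn* (4.80 ± 0.34 and 2.53 ± 0.23) came last, each apart from its neighbour above. Against all tested genes, the CONV-R RPKM of *Neurl3* was above 96.8% of genes and that of *Kazn* above 48.3%.

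**Figure D2:**
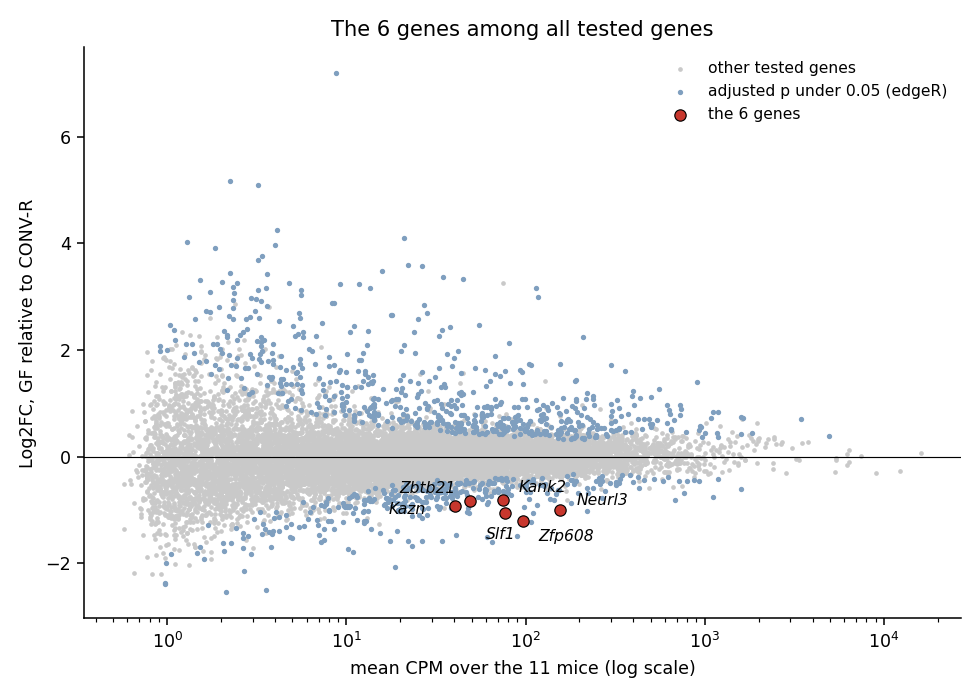
Log2FC of GF relative to CONV-R mice against mean CPM over the 11 mice (log scale) for the 12905 tested genes, with genes of an adjusted p under 0.05 in blue and the 6 genes in red. The 6 genes sit between Log2FC -1.21 and -0.81 at mean levels from 27.2 to 201 CPM in the groups, and their CONV-R means exceed those of 70.4% (*Kazn*) to 92.2% (*Neurl3*) of tested genes.

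The next question was whether the 6 genes also moved together from mouse to mouse inside a group. For this, log2 CPM were centred on the mean of each group and correlated over the 11 mice. The 15 pairs of genes gave 4 positive and 11 negative values of Pearson's r, with a median of -0.23 and a range from -0.72 to 0.46. These pairs share the 6 genes and are not independent. The share of negative values over all pairs of tested genes is not given here. An r of 0.6 or more was reached by 0 of the 15 pairs, against 6.35% of all pairs of tested genes, and an r of -0.6 or less by 1 pair, against 6.16%. After adjustment over the 15 pairs, 0 passed 0.05 in the exact permutation test within groups, and 1 did so without adjustment.

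That pair was *Zfp608* and *Neurl3*, with r = -0.72 (exact permutation test, p = 0.026, adjusted p = 0.396) and Spearman's rho = -0.56 (exact permutation test, p = 0.097, adjusted p = 0.604). Within the groups, the mice with the most *Neurl3*, CONV-R 3 and GF 6, had the least *Zfp608*. Without CONV-R 2 and CONV-R 3, the 2 mice farthest from the median of *Zfp608*, r was -0.53 (exact permutation test, p = 0.174). With single mice left out it ran from -0.84 to -0.52.

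*Neurl3* and *Kank2* had the highest value, r = 0.46 (exact permutation test, p = 0.176, adjusted p = 0.713), with rho = 0.35 (exact permutation test, p = 0.328, adjusted p = 0.604). Without CONV-R 3 and GF 6 it was 0.40. In the 6 CONV-R mice alone r was 0.95 (exact permutation test, p = 0.00417, adjusted over the 15 pairs p = 0.0625), where CONV-R 3 and CONV-R 1 were the 2 highest mice for both genes. In GF mice the order differed: GF 6 had the most *Neurl3* and, after GF 2, the least *Kank2*. *Slf1* and *Kank2* gave r = -0.37, which became -0.78 (exact permutation test, p = 0.00742, adjusted p = 0.111) once the first principal component of all genes' deviations, 22.1% of their variance, was removed. CONV-R 3 had the largest loading on that component in size, at -0.72. The same step gave -0.65 for *Zfp608* and *Neurl3* (exact permutation test, p = 0.053, adjusted p = 0.265). It gave -0.67 for *Zfp608* and *Zbtb21* (exact permutation test, p = 0.048, adjusted p = 0.265).

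**Figure D3:**
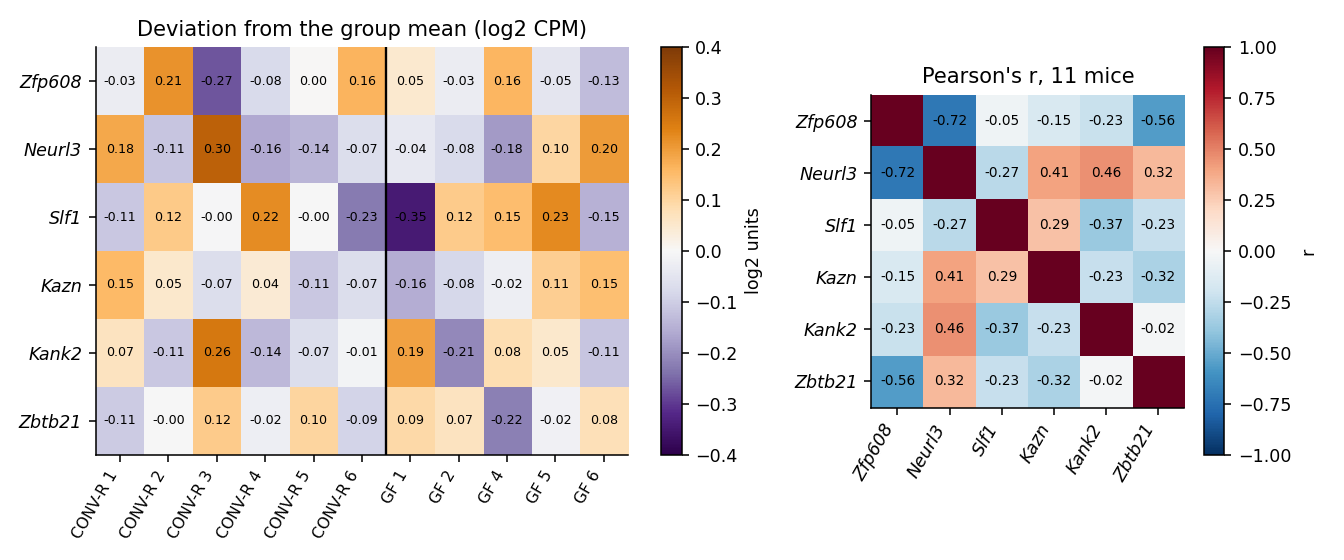
Left, log2 CPM of each gene in each mouse minus the mean of its group (colour and printed values, log2 units; the line divides CONV-R from GF mice); right, Pearson's r of these deviations for each pair over the 11 mice. Columns on the left mix orange and violet, as in CONV-R 3 with *Neurl3* at 0.30 and *Zfp608* at -0.27, and 11 of the 15 pairs on the right are negative.

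Genes of the whole table that followed each of the 6 most closely, by the same r over 11 mice, were different for each. For *Zfp608* they were *Vps33b* (r = 0.91), *Zfp583* (0.91) and *Zfp189* (0.91), for *Neurl3* *Afg3l2* (0.93), *Dym* (0.92) and *Apoa2* (0.91), and for *Slf1* *Psd3* (0.90), *Nuak2* (0.90) and *Gm16268* (0.90). For *Kazn* they were *Pogk* (0.92), *Irf8* (0.87) and *Tpm3* (0.86), for *Kank2* *Hars* (0.94), *Eif4ebp1* (0.93) and *Ctdsp1* (0.92), and for *Zbtb21* *Fam229b* (0.93), *Ska2* (0.91) and *Muc4* (0.90). These are the extremes of 12905 values each and are given as a description. The share of tested genes with an r of 0.6 or more ran from 2.05% for *Kazn* to 7.11% for *Kank2*. Of these 18 genes, only *Irf8*, a transcription factor of the interferon pathway, was called between the groups, and it was higher in GF mice (Log2FC 0.55, adjusted p = 0.025), the direction opposite to *Kazn*.

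The relatives and partners of the 6 proteins, listed by family and complex, mostly did not pass the test. Of 110 listed genes 98 were tested, and 4 (4.08%) were lower and 7 (7.14%) higher in GF mice, against 2.67% and 4.8% of all tested genes. With single mice left out, 1 to 5 were lower and 4 to 7 higher, and DESeq2 called 4 lower and 11 higher. Their median Log2FC was 0.02, against -0.01 over all tested genes.

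*Zfp609*, the paralog of *Zfp608*, had 122 ± 35.8 CPM in GF and 117 ± 23.2 CPM in CONV-R mice (Log2FC 0.06, adjusted p = 0.887). That value was -0.04 without CONV-R 3 and -0.12 without GF 1, so its sign rested on single mice. Of the 22 genes for Zfp609, cohesin, its loader and Integrator, 1 rose and 0 fell. The cohesin loader *Nipbl* stood at 568 ± 25.4 and 570 ± 35.4 CPM, and the cohesin subunits *Smc1a* and *Smc3* had a Log2FC of 0.09 and -0.03. The Integrator subunit *Ints6* was higher (Log2FC 0.50, adjusted p = 0.045), a call lost when any mouse other than CONV-R 3 was left out, with adjusted p up to 0.115, or with no filter on low counts (0.058).

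Among the ubiquitin ligases related to Neurl3, 4 of 6 were tested and 0 were called by edgeR or DESeq2, with 0 at an unadjusted p under 0.05. *Mib1*, a Mind bomb ligase, had 391 ± 65.0 CPM in GF and 348 ± 71.7 CPM in CONV-R mice (Log2FC 0.17, adjusted p = 0.566). *Neurl1b* (Log2FC -0.18, adjusted p = 0.731) and *Neurl4* (-0.17, adjusted p = 0.553) had groups that overlapped. *Neurl1a* was too low for the test, with 53 counts in all, 23 of them in CONV-R mice.

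Of the partners of Slf1, 9 of 10 were tested and 0 were called by edgeR, with 2 at an unadjusted p under 0.05. *Slf2*, listed under its older symbol *Fam178a* and the scaffold that Slf1 shares with SMC5-SMC6, stood on the other side of zero from *Slf1*, with 583 ± 63.3 CPM in GF and 471 ± 30.8 CPM in CONV-R mice (Log2FC 0.31, adjusted p = 0.065). It passed in DESeq2's test (adjusted p = 0.033) and without GF 2 (0.042) or GF 5 (0.049). *Smc6* had a Log2FC of -0.28 (adjusted p = 0.121), *Smc5* of -0.12 (0.651) and *Rad18* of -0.10 (0.737).

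For kazrin, 8 of 11 partners and liprins were tested. *Ppfia2*, which encodes a liprin-α, was lower with 60.9 ± 6.55 CPM in GF and 81.1 ± 6.68 CPM in CONV-R mice (Log2FC -0.42, adjusted p = 0.031). *Ppfibp1*, which encodes liprin-β1, was higher with 285 ± 27.1 and 216 ± 34.5 CPM (Log2FC 0.40, adjusted p = 0.048). Each call depended on the mice, being lost for *Ppfia2* without any of CONV-R 2, 4, 5 and 6 and GF 1 and 2 (adjusted p up to 0.082) and for *Ppfibp1* without any mouse but CONV-R 3 and GF 4 (up to 0.110), and for each of them with no filter on low counts. *Ppfibp1* also lost its call with counts drawn down to the lowest total (0.056). The plakins periplakin (*Ppl*, 4.36 CPM in GF and 2.86 in CONV-R mice, Log2FC 0.60, adjusted p = 0.507) and envoplakin (*Evpl*, 1.64 and 0.94 CPM) were scarce in these cells. Desmoplakin (*Dsp*) had 0 to 5.97 CPM in GF and 0.34 to 1.24 CPM in CONV-R mice (Log2FC 1.92, standard error 0.68, adjusted p = 0.095). It passed in DESeq2's test (adjusted p = 0.043), with no filter on low counts (0.043) and without GF 5 (0.013). *Ppfibp2* had a Log2FC of 0.62 (adjusted p = 0.662).

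Of the 3 other KANK genes, 1 passed the test. *Kank3*, a KANK protein of endothelium, was higher, with 262 to 385 CPM in GF and 168 to 270 CPM in CONV-R mice (Log2FC 0.59, standard error 0.13, adjusted p = 0.013), and was called in each of 18 alternatives. *Kank1* had 31.0 ± 12.4 CPM in GF and 46.1 ± 3.43 CPM in CONV-R mice, a Log2FC of -0.56 with an adjusted p of 0.087. In 4 of the 5 GF mice it lay below the CONV-R group, GF 1 being the exception with 51.8 CPM, and without GF 1 the Log2FC was -0.83 (adjusted p = 0.00296). It also passed with no filter on low counts (adjusted p = 0.041). *Kank4* was near the limit of detection at 1.22 and 1.01 CPM (Log2FC 0.36, adjusted p = 0.824).

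Of the 16 genes of the KANK family and the adhesion belt, 2 rose and 1 fell. *Phldb2*, which encodes the LL5β protein that anchors the cortical complex at which KANK proteins and liprin-β1 meet, was lower, with 696 to 819 CPM in GF and 931 to 1178 CPM in CONV-R mice. The groups did not overlap, and the Log2FC, called in each of 18 alternatives, was -0.47 (standard error 0.09, adjusted p = 0.00572). Vinculin (*Vcl*), the talin-binding protein of focal adhesions, was higher with 124 ± 16.6 and 84.2 ± 17.8 CPM (Log2FC 0.56, adjusted p = 0.031), a call lost without any of CONV-R 4, 5 and 6 and GF 2, 4 and 6 (adjusted p up to 0.079). Of the talin genes, *Tln1* had a Log2FC of 0.23 (adjusted p = 0.403). *Tln2* had 18.5 to 41.3 CPM in GF and 10.2 to 21.2 CPM in CONV-R mice (Log2FC 0.74, adjusted p = 0.076), and it passed in DESeq2's test (adjusted p = 0.040) and with no filter on low counts (0.034). The steroid receptor coactivators *Ncoa1* (Log2FC 0.01, adjusted p = 0.967), *Ncoa2* (0.06, 0.767) and *Ncoa3* (0.02, 0.943) were not called.

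Among 39 tested BTB zinc finger genes, the family of Zbtb21, 3 rose and 2 fell. *Bcl6*, a repressor that restrains inflammatory genes, had 31.4 to 49.9 CPM in GF and 18.6 to 29.8 CPM in CONV-R mice (Log2FC 0.74, standard error 0.16, adjusted p = 0.00835). *Zbtb38*, which binds methylated DNA, had 216 to 282 and 150 to 180 CPM (Log2FC 0.58, standard error 0.10, adjusted p = 0.00225). The third was *Zbtb16*, with 5.81 to 47.4 CPM in GF mice while the 6 CONV-R libraries had 9 counts between them.

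In these 3 genes the groups did not overlap, which 3.22% of all tested genes shared in this direction, and *Bcl6* and *Zbtb38* were called in each of 18 alternatives. *Zbtb46* was lower (Log2FC -0.39, adjusted p = 0.044), as was *Zbtb25* (-0.59, adjusted p = 0.049). These 2 calls were lost when any mouse but CONV-R 5 and GF 5 was left out for *Zbtb46* (adjusted p up to 0.108), and any but CONV-R 6 and GF 5 for *Zbtb25* (up to 0.115), and *Zbtb25* was also lost with no filter on low counts (0.082) and *Zbtb46* with counts drawn down to the lowest total (0.054). *Zbtb14*, which is known as a partner of Zbtb21, had 13.9 ± 3.82 CPM in GF and 12.3 ± 1.60 CPM in CONV-R mice (Log2FC 0.18, adjusted p = 0.629).

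**Figure D4:**
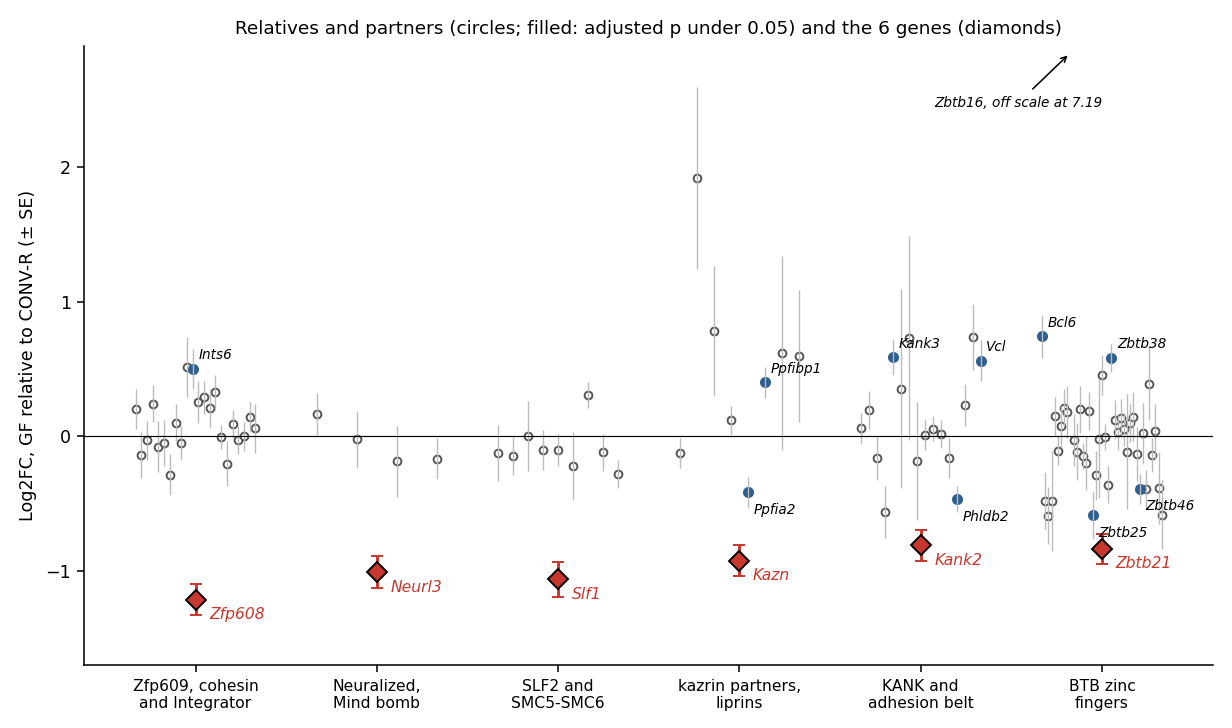
Log2FC of GF relative to CONV-R mice with standard errors for the 98 tested relatives and partners (circles, filled blue at an adjusted p under 0.05) in 6 lists, with the gene each list was made for as a red diamond. The circles centre on 0 with 7 called higher and 4 lower, *Zbtb16* lies above the drawn range at 7.19, and the 6 diamonds lie between -1.21 and -0.81.

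The surroundings of the 6 genes in the genome were looked at after the values were known. Among overlapping genes and nearest tested genes, 15 were looked at, 14 were tested and 3 were lower in GF mice, against 2.67% of all tested genes. Inside *Zfp608*, the noncoding gene *Gm26742* on the opposite strand, which shares 79 exon bases with it, had 7.50 ± 3.50 CPM in GF and 19.0 ± 5.44 CPM in CONV-R mice (Log2FC -1.35, standard error 0.31, adjusted p = 0.012). Its ranges met, at 11.5 CPM in the highest GF and 10.1 CPM in the lowest CONV-R mouse.

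Inside *Kazn*, the antisense gene *Gm13062*, which shares no exon base with it, had 0.38 to 1.19 CPM in GF and 1.93 to 5.77 CPM in CONV-R mice (Log2FC -2.55, standard error 0.45, adjusted p = 0.00224), on 28 and 242 counts. *Tmem51os1*, 14291 bases from *Kazn* and on the opposite strand, was also lower (Log2FC -0.89, adjusted p = 0.021). The strand setting of the counting is not given in the sources used here, so reads of a gene and of an overlapping gene on the other strand cannot be told apart.

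The next 5 neighbours did not pass this threshold. *C030010L15Rik*, 31974 bases from *Zbtb21* and on the same strand, had 0 to 0.71 CPM in GF and 0.47 to 2.91 CPM in CONV-R mice (Log2FC -2.02, standard error 0.64, adjusted p = 0.063), on 22 and 120 counts. It passed in DESeq2's test (adjusted p = 0.024) and without CONV-R 1 (0.036). *C2cd2*, which overlaps 86 exon bases of *Zbtb21* on the same strand, had 143 ± 14.99 CPM in GF and 140 ± 12.2 CPM in CONV-R mice (Log2FC 0.03, adjusted p = 0.921). *2210408I21Rik*, which lies 67 bases from *Slf1* on the opposite strand, had a Log2FC of -0.35 (adjusted p = 0.152). At 1116 bases from *Kank2* and on the same strand, *Dock6* was at 506 ± 70.6 and 541 ± 82.2 CPM (Log2FC -0.10, adjusted p = 0.688). *Uggt1* beside *Neurl3* had a Log2FC of 0.28 (adjusted p = 0.147).

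**Figure D5:**
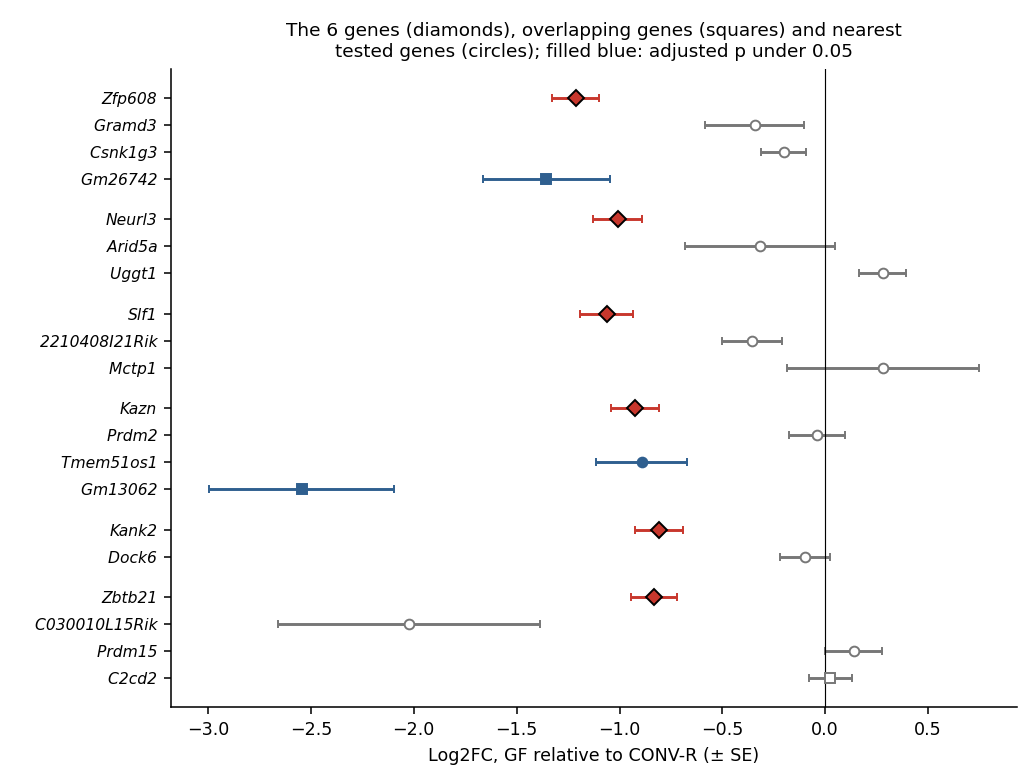
Log2FC of GF relative to CONV-R mice with standard errors for each of the 6 genes (red diamonds), the tested genes that overlap it (squares) and nearest tested genes (circles), filled blue at an adjusted p under 0.05. Blue points appear at *Zfp608* (*Gm26742*) and *Kazn* (*Gm13062*, *Tmem51os1*), between -2.55 and -0.89.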

How the data were processed

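RNA of sorted liver ECs from 6 CONV-R and 5 GF mice was sequenced, 1 library per mouse, and samples were grouped by the treatment label. The authors deposited raw counts per gene, made by trimming, STAR mapping to GRCm38 and featureCounts, after removing 1 further GF library with few mapped reads. A further table the authors deposited gives log2 values, normalized with the DESeq method. The step that put them on a log2 scale is not given in the sources used here. The annotation release and strand setting of the counting are not given in the sources used here. Amplification before sequencing adds copies that counts cannot tell from molecules, and the 7242717 to 16164588 counts per library limit the scarcer genes.

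Counts were analysed in R 4.3.3 with edgeR 4.0.16 (filterByExpr, TMM, quasi-likelihood test, Benjamini-Hochberg adjustment over 12905 genes, threshold 0.05, no minimum fold), with no covariate. Pairs of genes were compared with log2 CPM (prior count 2) centred by group and two-sided exact permutations within groups (86400 orders). Marker sums were tested over all splits of the mice. No pair of libraries of a group agreed within counting noise. Positions and exon lengths came from GENCODE M21. The members, lists, motifs and tests were chosen with earlier results of these data known, and the neighbouring genes were added after the values were seen. Named were the 6 genes, called relatives, closest paralogs, the 3 most correlated genes of each, and neighbours; other genes named from the lists were chosen after their values were seen. Alternatives were DESeq2 1.42.0 and its size factors, other filters, drawn-down counts, each mouse left out, a replicate block and, for pairs, other values, prior counts and mice. The tests were tried on simulated data. Plots used matplotlib 3.10.9. A further neighbouring gene and a further promoter sequence, beside those shown, are not reported here.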

Additional observations from a re-analysis of the deposited data

Results flagged for a closer look

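Among 28 groups of values checked (the 6 genes and 8 marker lists in each group of mice), 3 had a mouse whose gap to its nearest neighbour exceeded Dixon's 95% limit for the group's range, and chance alone gives about 1 in 20. None of the 6 genes had such a mouse in either group. The summed endothelial markers of GF 5 were 10514 CPM, against 14661 to 15243 in the other GF mice. The summed Kupffer cell markers of GF 6 were 931 CPM, against 197 to 357 in the other GF mice. The summed neutrophil and monocyte markers of GF 6 were 230 CPM, against 52.1 to 88.7. Without GF 5 the log2 ratio of the endothelial sum, 0.11 with all mice, was 0.20 (two-sided exact permutation test, p = 0.019).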

How the results depend on the processing

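The 6 genes stayed lower in every alternative, with Log2FC ranges over left-out mice of -1.26 to -1.17 (*Zfp608*), -1.06 to -0.95 (*Neurl3*), -1.12 to -0.98 (*Slf1*), -0.96 to -0.88 (*Kazn*), -0.86 to -0.76 (*Kank2*) and -0.86 to -0.78 (*Zbtb21*). In the authors' log2 values, which are on another scale than the Log2FC, the differences were -0.98 (*Zfp608*), -0.81 (*Neurl3*), -0.87 (*Slf1*), -0.73 (*Kazn*), -0.65 (*Kank2*) and -0.66 (*Zbtb21*). DESeq2 called 1527 genes, 598 of them lower, and 11 relatives higher. Leaving out a mouse gave 622 to 1260 called genes, 413 to 779 higher and 206 to 481 lower, with 4 to 7 relatives higher and 1 to 5 lower. Calls moved by over 1.5 times without CONV-R 4 or GF 6 (the fewest, 622 called, 413 higher), and those lower in GF mice without CONV-R 2 (225), CONV-R 4 (209), CONV-R 5 (206) or GF 6 (209). Deviations of same-numbered mice correlated between -0.01 and 0.20, and only numbers 1 and 6 fitted best with their own number. These values cannot show whether the replicate numbers pair the mice. With the replicate block on the 10 libraries that share numbers 1101 genes were called, and 931 in the same libraries without it, an alternative added after the data were seen. In those libraries *Zbtb46* (adjusted p = 0.083 with the block, 0.064 without) and *Zbtb25* (0.075 and 0.068) were not called, and *Kank1* was called with the block (0.024) and not without it (0.077). Relatives called lower were 2 without the block, and *Zfp609* had a Log2FC of -0.087 with it and -0.044 without it. Over left-out mice *Zfp609* ran from -0.12 (without GF 1) to 0.15, and it was also negative without CONV-R 3 (-0.044). Pairs of the 6 genes with r of 0.6 or more numbered 1 in CONV-R mice alone, 1 without the 2 farthest mice, and 0 to 1 over left-out mice, and the median r ran from -0.24 to -0.10. Summed markers over left-out mice had log2 ratios of 0.065 to 0.20 (endothelial, past 0.05 without GF 5), 0.69 to 1.38 (neutrophil and monocyte, p above 0.05 without CONV-R 2, 4 or 5 or GF 2, 5 or 6) and -0.41 to 0.12 (stellate, positive without CONV-R 2, at 0.014, GF 1, at 0.083, or GF 4, at 0.12). The cause of these changes was not tested. With 5 and 6 mice, scarce genes such as *Neurl1a* and *Kank4* rest on few counts, and what greater depth would give was not tested.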

Other observations

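Scarce markers of other liver cells differed between the groups, and their part in the levels of the 6 genes was not tested. The 6 cholangiocyte markers summed to 13.6 to 38.0 CPM in GF and 0.34 to 8.96 CPM in CONV-R mice (exact permutation test over all splits, two-sided, p = 0.00433). Of these markers *Spp1*, at 11.98 to 14.6 CPM in GF and 0 to 8.47 CPM in CONV-R mice, was the only one whose groups did not overlap, and each of the other 5 was at 0 CPM in at least 1 GF mouse. The 10 lymphocyte markers summed to 3.77 to 6.28 CPM in GF and 6.75 to 16.6 CPM in CONV-R mice (p = 0.00433, same exact test). Neutrophil and monocyte markers summed to 52.1 to 230 and 22.9 to 63.5 CPM (p = 0.030, same exact test). That call was lost without any of CONV-R 2, 4 and 5 and GF 2, 5 and 6 (p = 0.056 to 0.067, same exact test), and the log2 ratio was 0.69 without GF 6 instead of 1.21. Most of that sum was *Lyz2*, which macrophages also express, at 40.6 to 219 CPM in GF and 16.9 to 52.3 CPM in CONV-R mice. Of the other 7 genes, *S100a8*, *S100a9*, *Retnlg* and *Ccr2* had lower means in GF mice and *Csf3r*, *Ly6c2* and *Plac8* higher ones, and the groups overlapped for each of them. Hepatocyte markers (p = 0.424) and stellate cell markers (p = 0.797) did not pass the same exact test. Of the 10 endothelial markers, the transcription factor *Erg* was the only one called, at 128 to 174 CPM in GF and 191 to 365 CPM in CONV-R mice (Log2FC -0.68, standard error 0.15, adjusted p = 0.012, edgeR). It was called in each of 18 alternatives. Whether it is related to the 6 genes was not tested.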
